A study of Homo sapiens with 2 samples.

Results

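The miR-92 and miR-25 family holds 9 of the 2632 human miRNA probes on the array, 4 for its 3p arms and 5 for its 5p arms. The members were chosen by probe name. They are hsa-miR-92a-3p, hsa-miR-92b-3p, hsa-miR-25-3p and hsa-miR-363-3p, with the opposite arms hsa-miR-92a-1-5p, hsa-miR-92a-2-5p, hsa-miR-92b-5p, hsa-miR-25-5p and hsa-miR-363-5p (the species prefix is dropped below). They were read in exosomes, the small vesicles that cells shed into their medium, from U87MG delta EGFR, a glioblastoma line. The BNCT group was treated by boron neutron capture therapy, in which neutrons split boron inside loaded cells: 2 hours with 25 ppm of p-boronophenylalanine-fructose complex, thermal neutrons, and collection of medium on day 3. The control group is labelled as non-treated, but its record carries the same text on boron compound, neutrons and collection as the BNCT record. That text was taken here to describe the BNCT group, from the treatment labels. Whether the control cells had the compound, sham handling or the same collection day is not stated separately. Both groups were grown in medium with exosome-depleted serum. The titles name exosomes, while the extraction text speaks of RNA from cells. Each group had 1 Cy5 array on a slide of its own, so treatment, culture and slide cannot be told apart, and there is no replicate, no test and no p-value.

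A miRNA hairpin is cut into a duplex of 2 strands, of which 1, the mature or guide strand, usually stays in Argonaute and represses target mRNAs, while the other, the passenger strand, is mostly degraded. In this family the 3p arm is the mature one. It comes from the clusters of miR-17, miR-106a and miR-106b, which are known as targets of the oncoprotein MYC, and from the separate miR-92b gene. The mature arms are known for repressing the cell death factor BIM, and miR-92a-3p and miR-25-3p are also abundant in blood cells.

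The 3p arms are shown first because their common seed defines the family. Capitals mark bases 2 to 8, the seed that pairs with targets, in RefSeq sequences of build GRCh38.p14, which held all 9 members.
miR-92a-3p: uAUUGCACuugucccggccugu
miR-92b-3p: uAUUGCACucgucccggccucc
miR-25-3p: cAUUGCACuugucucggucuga
miR-363-3p: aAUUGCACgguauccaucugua
All 4 carry the seed AUUGCAC. Read base by base from the 5′ end, miR-92a-3p matches miR-92b-3p at 19 of 22 bases, miR-25-3p at 18 and miR-363-3p at 10.

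The 5p arms are shown because the brightest members of the family are among them, and because each has its own seed.
miR-92b-5p: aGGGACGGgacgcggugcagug
miR-25-5p: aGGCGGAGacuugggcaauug
miR-92a-2-5p: gGGUGGGGauuuguugcauuac
miR-92a-1-5p: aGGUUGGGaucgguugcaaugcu
miR-363-5p: cGGGUGGAucacgaugcaauuu
The seeds of the 5p arms hold 5 or 6 G among 7 bases, and those of the 3p arms hold 1.

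The hairpins of the 2 brightest members are given with both arms in capitals, the 5p arm on the left.
MIR92B: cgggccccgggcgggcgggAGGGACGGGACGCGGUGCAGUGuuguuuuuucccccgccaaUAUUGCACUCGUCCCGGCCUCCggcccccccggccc
MIR25: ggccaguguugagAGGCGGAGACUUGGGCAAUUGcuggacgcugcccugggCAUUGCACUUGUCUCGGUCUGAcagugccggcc
In GRCh38.p14 the hairpin MIR92B lies at chr1:155195177-155195272 on the plus strand, within the span of the lncRNA gene THBS3-AS1. MIR25 lies at chr7:100093560-100093643 on the minus strand, within the span of MCM7, which codes for a subunit of the replicative helicase. MIR92A1 (chr13:91351314-91351391, plus strand) lies within the lncRNA gene MIR17HG. MIR92A2 (chrX:134169538-134169612) and MIR363 (chrX:134169378-134169452), both on the minus strand, lie within MIR106AHG. Whether these spans are exon or intron there was not looked up.

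Signal over the blank level was found in 2 passenger arms on both arrays and in no mature arm on both. These are 2 of 9 members, where 24.1% of all miRNA probes were detected on both arrays. The detection limit was set 2 SD over the mean of each array's blank spots, after the highest and lowest 5% of blanks had been removed. That limit was 267.3 scanner units on the BNCT array and 271.8 on the control array, over blank means of 254.9 and 258.1 units. On the BNCT array 5 of 9 members were detected, where 36.4% of all miRNA probes were. On the control array 2 of 9 were detected, against 28.9% of all probes. By arm, 4 of 5 members of the 5p arm and 1 of 4 of the 3p arm were detected on the BNCT array. Among all probes named for 1 arm, 42.6% of 5p and 28.6% of 3p probes were detected there. The control array had 2 of 5 and 0 of 4, against 35.2% and 21.9% of such probes.

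The passenger arm of miR-92b, miR-92b-5p, read 387.8 units on the BNCT array and 343.4 units on the control array. These readings lay 21.42 and 12.44 blank SDs above the blank means. The passenger arm of miR-25, miR-25-5p, read 364.3 units on the BNCT array and 316.2 on the control array, or 17.63 and 8.46 blank SDs above the blanks. Both arms therefore stood clear of the detection limit on each array, and these 2 alone among the members also passed a limit at 5 SD. That limit was passed by 20% of all probes on the BNCT array and 13.7% on the control array. They alone also read above the mean of the spots without a probe, which 19.3% and 11.7% of all probes did.

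None of the 312 blank spots reached either arm on either array. The array also has 112 spots that carry no probe, and these read above the blanks, with means of 289.0 units on the BNCT array and 301.3 on the control array. The dimmest of them read 274.3 units on the control array, so all passed the detection limit of 271.8 units there. On the BNCT array they read 265.6 to 326.6 units, and nearly all passed the limit of 267.3 units. None of them reached miR-92b-5p or miR-25-5p on the BNCT array. On the control array none reached miR-92b-5p, while 9 were at or above miR-25-5p. The spots next to miR-92b-5p in its block read at most 259.0 units on the BNCT array and 271.7 on the control array. Those next to miR-25-5p reached 301.5 and 269.5 units. Both arms were thus brighter than every adjacent spot on each array.

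The mature strands of the same hairpins, each set against its own limit, lay at or near the blanks. miR-92b-3p read 266.3 units on the BNCT array and 267.0 on the control array, 1.02 units short of the BNCT limit and 1.84 and 1.29 blank SDs above the blank means. miR-25-3p read 255.4 units on the BNCT array and 252.1 on the control array, within 1 blank SD of the blank mean on each. Of the 312 blank spots, 140 on the BNCT array and 241 on the control array were as bright as miR-25-3p or brighter. For miR-92b-3p it was fewer, 22 on the BNCT array and 54 on the control array. Because different probes bind with different strength, the reading of a 5p probe was not set against that of its 3p partner.

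Of the other mature arms, miR-92a-3p, the most studied member and the product of both MIR92A1 and MIR92A2, was detected on the BNCT array alone. It read 275.1 units there and 259.5 units on the control array, 3.25 and 0.20 blank SDs above the blanks. Its normalized level had a bound of 1.03-fold higher on the BNCT array, set by the dimmest level the control array could detect. No error was put on this bound, and the reading lay 7.76 units over the BNCT limit. Of the 112 spots without a probe, 100 were as bright or brighter on the BNCT array. miR-363-3p, the last mature arm, read 254.2 units on the BNCT array and 257.0 on the control array, both just under the blank means.

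The remaining passenger arms were near the limit. miR-92a-2-5p read 273.1 units on the BNCT array, where it was detected, and 261.2 on the control array, where it was not, with a bound of 1.0-fold. miR-92a-1-5p was not detected on either array, with 257.2 units on the BNCT array and 263.4 on the control array. miR-363-5p was detected on the BNCT array and not on the control array, although it read 2.9 units lower on the BNCT array (268.7 and 271.6 units). Its call changed because the 2 limits differ: it lay 1.38 units over the BNCT limit and 0.21 units under the control limit, and it had no bound above 1. Of the 3 members detected on the BNCT array alone, 2 thus read brighter there and 1 dimmer. On that array 105 of the 112 spots without a probe were as bright as miR-92a-2-5p or brighter. For miR-363-5p it was 110.

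**Figure D1:**
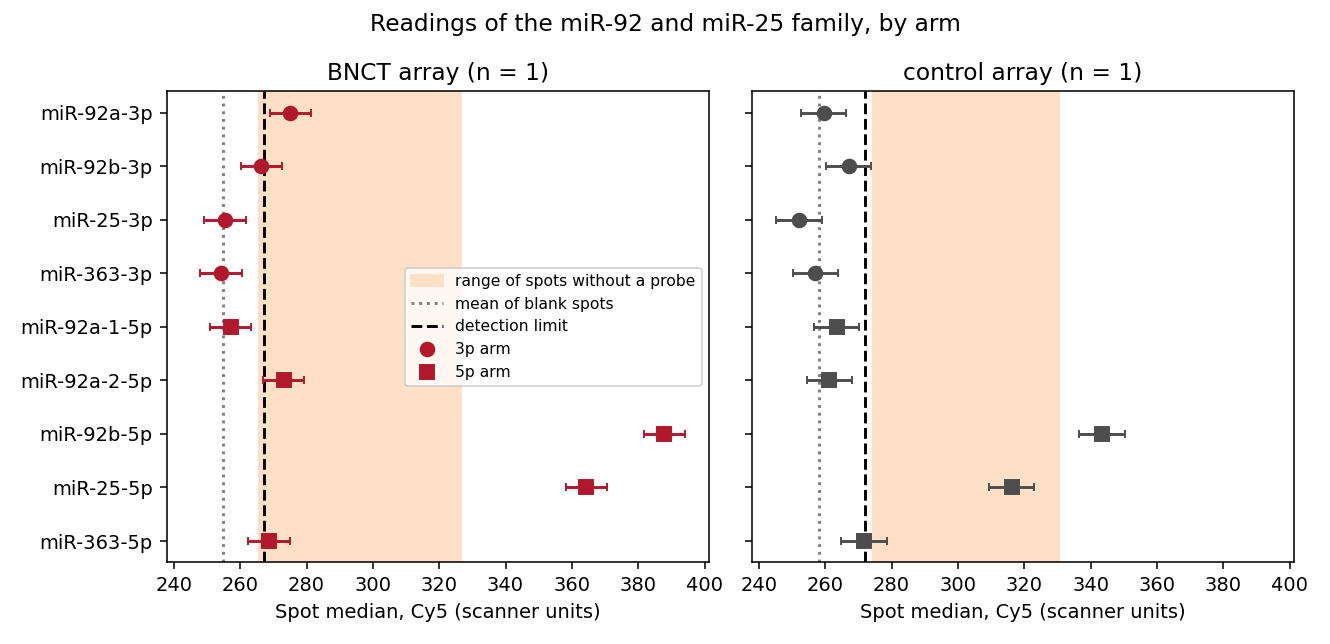
Spot median in the Cy5 channel (scanner units) of the 9 members on the BNCT array (left) and the control array (right), 1 spot per array, with circles for 3p arms and squares for 5p arms. Bars are 1 SD of the blank spots, the dotted line is the mean of the blanks, the dashed line the detection limit and the shaded band the range of spots without a probe. miR-92b-5p and miR-25-5p stand apart on the right in both panels, with miR-25-5p inside the band on the control array, and the other 7 members lie near the limit or under it.

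The scanner's own local background column gave another picture. It was high where spots were bright, with a median of 255.4 units at detected probes and 218.6 at undetected ones on the BNCT array, and 242.2 and 215.8 on the control array. With that column subtracted, miR-92b-5p kept 33.9 units on the BNCT array and 24.1 on the control array, and miR-25-5p kept 2.8 and 45.1 units. The blank spots treated the same way kept a median of 39.7 and 46.8 units, so neither arm exceeded them. Against a limit set from these differences (67.0 and 73.9 units) 0 of 9 members were detected on the BNCT array, where 14% of all probes were. On the control array 1 was, where 12.2% were, and that member was miR-363-3p, a mature arm, at 77.8 units. Why the column followed the spots was not tested. The detection of the passenger arms thus rests on the blank spots as the background.

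Between the treatments the 2 passenger arms differed little. Levels here are log2 values, corrected against the blank spots and then quantile-normalized, so that both arrays share 1 set of levels. miR-92b-5p had a log2 level of 7.23 on the BNCT array and 7.36 on the control array, a difference of -0.13 (BNCT minus control) with a spot error of 0.13. miR-25-5p had 7.03 and 7.04, a difference of -0.01 with a spot error of 0.14. The spot error joins the SD of the blanks with the scatter of the spike control spots, and it covers neither cultures nor slides. Neither arm passed 2-fold, and of the 635 probes detected on both arrays 0% did so in either direction. The median difference over those probes was -0.02 and the SD 0.22, so both arms lay within 1 SD of the median. This is a comparison with the spread over probes and not with replicates.

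The direction followed the scaling. In raw units both arms read brighter on the BNCT array, miR-92b-5p by 44.4 units and miR-25-5p by 48.1. Without normalization their log2 differences were 0.44 and 0.57, beside a median of 0.45 over the probes detected on both arrays. In the authors' deposited values miR-92b-5p had 86.2 on the BNCT array and 68.4 on the control array, and miR-25-5p had 70.9 and 46.6. These correspond to log2 differences of 0.33 and 0.61, where the same probes had a median of 0.41. With spike scaling they were 0.72 and 0.85 (median 0.73). Under these 3 scalings miR-92b-5p stayed close to the median of the probes, and miR-25-5p lay 0.12 to 0.20 above it.

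**Figure D2:**
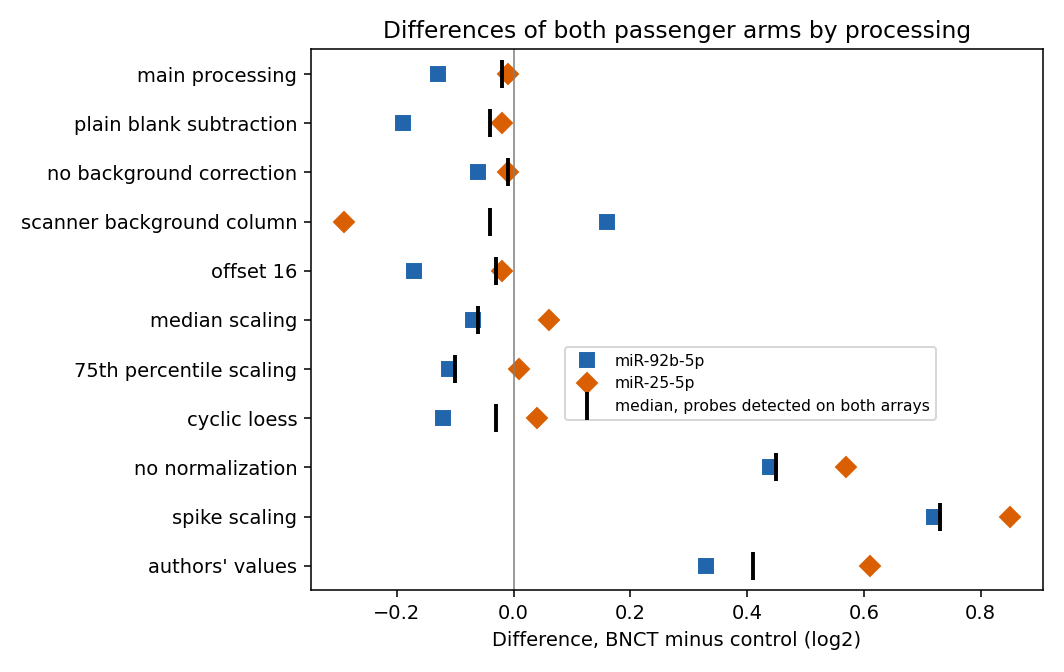
Log2 difference, BNCT minus control, of miR-92b-5p (squares) and miR-25-5p (diamonds) under each processing, 1 array per group, with a black bar at the median of the 635 probes detected on both arrays. Both members move with the median where the arrays are not brought to 1 level (0.44 and 0.57 unnormalized, 0.72 and 0.85 by spikes), and they part most with the scanner's background column (0.16 and -0.29).

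The pattern of a signal in the 5p arm with none in the 3p arm was set beside all hairpins that have both arms on the array. Of 744 such arm pairs, 15.1% had the 5p arm detected on both arrays and the 3p arm on neither, and 5.24% had the reverse. In the family 2 of 5 pairs, those of miR-92b and miR-25, had the first pattern and 0 had the reverse. MIR92A1 and MIR92A2 share their 3p probe, so the 5 pairs are not independent. Over all probes named for 1 arm, 42.6% of 5p and 28.6% of 3p probes were detected on the BNCT array, and 35.2% and 21.9% on the control array. The 5p arms of the array as a whole were therefore detected more often.

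Above 30% G, detection over the whole array was more frequent the more G a miRNA held, and the members are spread along the range of G contents. A RefSeq mature sequence was matched to 2337 of the 2632 probes (88.8%). Among miRNAs with 50% G or more, 98.3% (95% Wilson interval 95.8 to 99.4) were detected on the BNCT array and 90.8% (86.5 to 93.9) on the control array. Between 40 and 50% G the shares were 81.8% and 60.9%, between 30 and 40% they were 34.5% and 24.0%, and between 20 and 30% they were 15.1% and 11.9%. The largest bin, 687 miRNAs with under 20% G, went the other way, with 19.5% and 16.4% detected, and it holds miR-92b-3p and miR-363-3p. These intervals cover the counting of probes only.

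The brightest member, miR-92b-5p, holds 54.5% G, and miR-25-5p holds 42.9%. miR-92a-2-5p with 40.9%, miR-92a-1-5p with 39.1% and miR-363-5p with 31.8% are the other passenger arms. The 4 mature arms hold 18.2 to 22.7% G. The 2 arms detected on both arrays are thus the members with the most G. Below them the order was not kept, since miR-92a-1-5p was detected on neither array while miR-363-5p and miR-92a-3p, with less G, were detected on the BNCT array. For G + C together the arms overlap: miR-92b-3p, detected on neither array, has 63.6%, and miR-25-5p has 57.1%. Over the probes with a sequence, detection nonetheless rose with G + C at every step on both arrays. Under 40% G + C it was 3.44% on the BNCT array and 5.16% on the control array. At 70% or more, the bin of miR-92b-5p, it was 81.1% and 72.3%. Of 191 hairpins whose 5p arm has at least 40% G and whose 3p arm has under 30%, 34.6% had the 5p arm on both arrays and the 3p arm on neither. The family has 3 such hairpins, MIR92B, MIR25 and MIR92A2, and 2 of them had that pattern. Where the 5p arm had under 40% G and the 3p arm under 30%, the share was 8.29% of 386 hairpins. In the 46 hairpins with a 3p arm of at least 40% G and a 5p arm under 30%, the reverse pattern was seen in 34.8%. The part of base composition in the readings of the members was not tested.

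**Figure D3:**
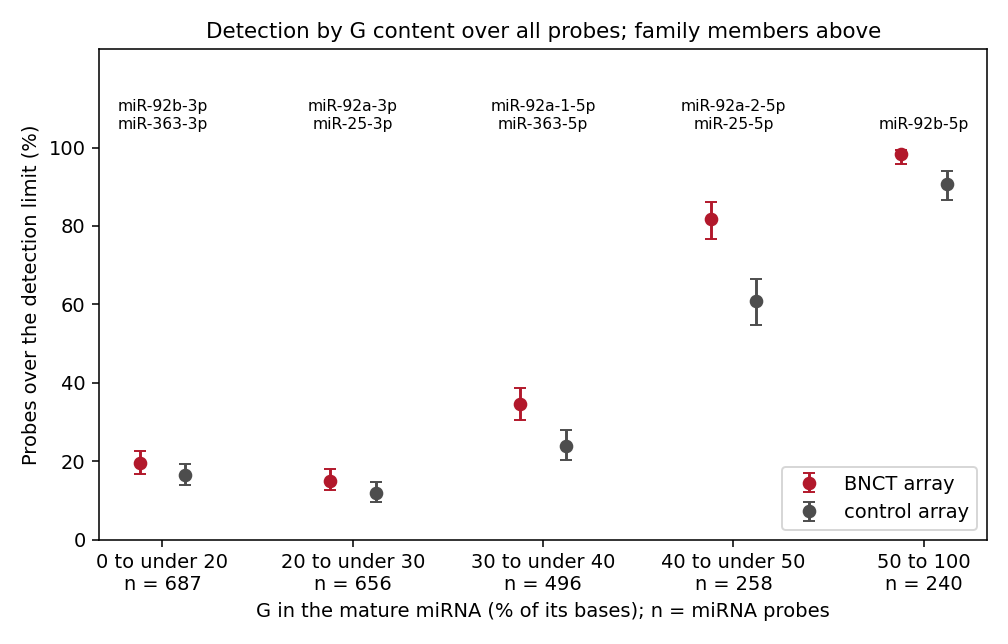
Share of miRNA probes over the detection limit (%) by the G content of the mature miRNA (% of its bases), with the BNCT array to the left of the control array in each bin and 95% Wilson intervals, and the members of each bin named above it. The share is 19.5 and 16.4% under 20% G, lowest at 20 to 30% G (15.1 and 11.9%) and highest at 50% G or more (98.3 and 90.8%), the bin that holds miR-92b-5p.

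The other miRNAs of the 3 MYC-driven clusters showed little signal in either arm. Their 10 mature arms, among them miR-17-5p, miR-20a-5p and miR-19b-3p, gave 0 detected on each array, with readings of 248.8 to 256.9 units on the BNCT array and 238.3 to 265.6 on the control array. Of their 11 passenger arms 3 were detected on the BNCT array and 2 on the control array. Over all probes the shares were 36.4% and 28.9%, larger than in either set of arms. All 3 of these passenger arms were 3p arms. miR-106b-3p, from the same cluster as miR-25, read 275.7 units on the BNCT array and 289.3 on the control array, a log2 difference of -0.46 with a spot error of 0.18. miR-18b-3p read 275.6 and 273.2 units, a difference of 0.02 with a spot error of 0.17. miR-18a-3p was detected on the BNCT array alone, at 273.2 units against 266.7 on the control array, with a bound of 1.0-fold. None of the 3 passed the 5 SD limit on either array. Their G contents of 31.8%, 18.2% and 21.7% were below that of miR-25-5p. Over these other cluster miRNAs, with the family members left out, the passenger arms with a sequence had a median of 22.7% G and the mature arms 30.4%.

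2 further miRNAs on the array carry the family's seed, miR-32-5p and miR-367-3p, and both are mature strands. miR-32-5p read 248.5 units on the BNCT array and 267.7 on the control array, and miR-367-3p read 248.8 and 259.6. Both were under the limit on each array. All 6 miRNAs with the seed AUUGCAC were thus undetected on the control array, and miR-92a-3p alone was detected on the BNCT array.

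The 3 probes whose levels on the 2 arrays were closest to those of miR-92b-5p were miR-6760-5p, miR-4447 and miR-10398-3p. Their Euclidean distances on the log2 scale were 0.024, 0.046 and 0.060, over 2 arrays. miR-6760-5p read 389.0 units on the BNCT array and 341.0 on the control array. With only 2 arrays such a likeness says no more than that the readings are close.

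The labelled cell type could be checked against few markers. Of 8 miRNAs abundant in glioma and glial lines, 1 was detected on the BNCT array and 2 on the control array. Over all probes the shares were 36.4% and 28.9%. On neither array were 6 of the 8 detected. The bright exception was miR-24-3p, at 915.6 units on the BNCT array and 620.0 on the control array. miR-21-5p, the best known oncogenic miRNA of glioblastoma, was detected on neither array (255.7 and 260.2 units), and miR-23a-3p was over the limit on the control array alone (259.0 and 280.5 units). miR-10b-5p, miR-27a-3p, miR-221-3p, miR-222-3p and miR-9-5p were detected on neither array. Of 10 blood and serum miRNAs, 4 were detected on the BNCT array and 0 on the control array, where 36.4% and 28.9% of all probes were. These were miR-223-3p at 273.8 units, miR-486-3p at 273.7, miR-486-5p at 270.5 and miR-144-3p at 268.9, all near the limit, while the red cell marker miR-451a was on neither array above it. The summed readings of the 10 were 2628.4 units on the BNCT array and 2603.1 on the control array. These sums still contain the blank level of each spot, with blank means of 254.9 and 258.1 units, which makes up most of them. The part of blood or serum RNA in the BNCT reading of miR-92a-3p was not tested.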

How the data were processed

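Per the labels' protocols, total RNA was labelled with Cy5 using a Toray 3D-Gene kit. The deposited files give, per the file headers, a median intensity for each spot at 635 nm and a background median, read at 3 scanner gains joined by fitted lines, with no scaling between arrays. The authors' deposited processed values are also intensities: they are the spot medians less a constant (254.91 units for BNCT, 258.13 for control), divided by a factor (1.542 and 1.246), which sets the median of the listed values to 25. They list exactly the 957 and 761 probes over the limit used here. Software: not given in the sources used here. Spot medians were read in R 4.3.3 and corrected with limma 3.58.1 (nec on the blank spots, offset 50). Quantile normalization on the log2 scale then took the 2632 miRNA probes (1 spot each). On the control array 2 failed miRNA spots, not members, were left out. For a miRNA detected on 1 array, the bound sets its level there against the higher of the other array's lowest detected level and its own level there. The number of arrays limits the precision, and no test was possible with 1 per group. The members and lists were chosen with earlier results of these data known. All 9 members are named, with the members of 3 lists (other cluster miRNAs, glioma, blood) detected on either array, the 3 probes nearest in pattern, miR-21-5p and miR-24-3p. Other miRNAs with the family's seed or a shared run of bases and undetected markers such as miR-451a were added after the data were seen. So were the G and G + C content bins and the hairpins by G content. Alternatives covered the background, the offset, the scaling, the authors' values and the limit.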

Additional observations from a re-analysis of the deposited data

How the results depend on the processing

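No paired analysis was possible because each group has 1 array. The 2 members detected on both arrays never passed 2-fold under the 11 processings. Of the 635 probes detected on both arrays, 96 were 2-fold or more higher on the BNCT array with spike scaling, and 0 lower. In the authors' values 72 were higher and 15 lower, and with plain blank subtraction 17 and 25. Without normalization 10 were higher and 0 lower, with offset 16 it was 3 and 5, and with the scanner's background column 0 and 11. The remaining settings gave 0 in both directions. The difference of miR-92b-5p, -0.13, moved by more than its spot error to 0.44 without normalization, 0.72 with spike scaling, 0.33 in the authors' values and 0.16 with the scanner's background column. That of miR-25-5p, -0.01, moved to 0.57, 0.85, 0.61 and -0.29 under the same settings. Under the other 6 settings both stayed within their spot error, although miR-25-5p turned to 0.06 with median scaling, 0.04 with cyclic loess and 0.01 with 75th percentile scaling. The cause was not tested, beyond the median of shared probes moving alike without normalization, with spike scaling and in the authors' values. On the BNCT array the members detected fell to 2 (5p arms 2, 3p arms 0) both with a limit at 5 SD and with one at the mean of spots without a probe. With all blanks or a common limit 4 were detected there, 3 of them 5p arms. On the control array these limits left 2 (5p arms 2, 3p arms 0). With the scanner's background column subtracted, an alternative chosen after seeing the data, the members detected were 0 on the BNCT array (5p 0, 3p 0) and 1 on the control array (5p 0, 3p 1). The median spot error of 0.15 and 1 spot per probe limit what these arrays resolve.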

Other observations

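Other miRNAs on the array that share the longest run of bases with a member were read as well, as values with no explanation. miR-92b-5p shares 9 bases in a row with 6 other miRNAs, at different places in its sequence. Of these 6, 4 were detected on both arrays, where 24.1% of all miRNA probes were. The run that starts at base 1 of miR-92b-5p is in miR-6743-5p, which read 1877.1 units on the BNCT array and 1183.7 on the control array, and in miR-149-3p (673.2 and 459.3). The run from base 6 is in miR-4674 (279.5 and 282.9). The run from base 14 is in miR-6776-5p, detected on both arrays (352.8 and 327.8), and in miR-143-5p, detected on neither (261.9 and 260.7). The run from base 11 is in miR-543, detected on neither (246.9 and 255.4).

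miR-25-5p shares the 9 bases from its base 9 with miR-6774-5p, at 369.4 units on the BNCT array and 334.9 on the control array, and with miR-635, detected on neither (250.0 and 262.2). miR-92a-1-5p shares 9 bases with miR-6086, detected on both arrays (364.1 and 329.2). miR-92a-2-5p shares 11 bases with miR-3529-5p, detected on neither (244.0 and 233.5). miR-363-5p shares 8 bases with 4 miRNAs, of which miR-3141 (411.9 and 360.3) and miR-3165 (282.9 and 275.7) were detected on both arrays, and miR-137-5p and miR-4464 on neither. Among the mature arms, miR-363-3p shares 8 bases with 4 miRNAs, of which miR-557 alone was detected, on both arrays (316.0 and 292.7). miR-25-3p shares 10 bases with miR-423-3p, detected on the control array alone (250.7 and 274.8). miR-92b-3p shares 9 bases with miR-6763-3p, detected on the BNCT array alone (272.0 and 268.4), and with miR-301a-5p, detected on neither. miR-92a-3p shares 9 bases with 3 miRNAs, detected on neither array. The part of shared bases in the readings of the members was not tested.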
